A study of Mus musculus with 22 samples.

Results

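The interferon-inducible p200 genes (also called Ifi200, PYHIN or HIN-200 genes) form a cluster on mouse chromosome 1. The set described here holds 9 named rows of the deposited table: Ifi202b, Ifi203, Ifi204, Ifi205, Ifi207, Ifi209, Ifi211, Ifi213 and Mndal. They are 9 of 28984 genes in the table, and were chosen by symbol, with their values in the knockout and control groups already known to differ in opposite directions. Knockout and control values of these 9 genes are therefore given as a description, with standard errors and without p-values. Of the 9, 6 passed the filter on low values (a normalised count of at least 30 in at least 5 of 22 libraries), as did 12868 genes in all, and Ifi202b passed only through its knockout libraries. Ifi213 passed only through control libraries, most of them at postnatal day 31. Ifi203, Ifi205 and Mndal did not pass and were not tested.

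Proteins of this family carry a HIN domain, which binds DNA, and most carry a pyrin domain, through which they assemble with other proteins. Several act in the nucleus or cytosol as sensors of DNA or as modulators of transcription and cell growth, and type I interferon raises the transcription of many of them. In the brain and retina, microglia are the resident macrophages and among the cells that respond to interferon. Aim2, at one end of the same cluster, encodes the sensor that builds an inflammasome on cytosolic DNA, and Ifi202b, whose product lacks the pyrin domain, is known as an inhibitor of Aim2 and for levels that differ between inbred mouse strains.

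RNA sequencing was run on retinal microglia that had been sorted as CD45lowCD11b+Ly6C-Ly6G-Tom+ cells from mice whose Vldlr, the gene of the very low density lipoprotein receptor, was labelled knockout (KO) or control. By its title the series asks about microglia in retinal angiomatous proliferation, in which vessels grow where they should not. The groups were 7 control and 5 KO libraries at postnatal day 17 (P17), and 5 control and 5 KO libraries at postnatal day 31 (P31). The labels give no strain, no genotype for the controls beyond that word, and no source of the Tom marker, and do not say whether libraries came from separate or pooled animals. Strain background and Vldlr genotype therefore cannot be told apart, and p-values reflect only how these libraries vary, which may be technical.

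Libraries held 23.9 to 54.0 M (M, mega) reads, and 1 read was worth 0.578 to 1.29 normalised counts. All 10 microglia markers passed the filter and summed to 1821544 to 2643825 normalised counts in 21 libraries and to 1022235 in P17 KO library 1. Vldlr had 49 to 790 reads in the P17 controls and 0 to 17 in the P17 KO, but 0 to 875 and 0 to 65 at P31, where 4 of 5 controls held none. In that library the scaling in the table also stood apart, with a relative size factor of 0.814 against 0.338 from DESeq2 and 0.424 from TMM. Markers of some other cells differed between the groups, and others overlapped. The 7 glia markers, of which 6 passed, summed to 13903 to 25572 in the P17 controls and 42702 to 111880 in the P17 KO, and to 8490.2 to 12286 and 61238 to 83462 at P31. That gap was carried by 1 marker, the glutamate transporter Slc1a3 (1345 to 3186 and 14399 to 97037 at P17, 1970 to 3158 and 49515 to 75502 at P31). The other 6 summed to 12129 to 22386 and 13516 to 28302 at P17 and to 6520.2 to 9128 and 7960 to 11723 at P31, which overlapped. The median of Glul, the most abundant of them, was higher in the KO at P17 (11888 and 14061) and P31 (7358 and 8568). That of Gfap was higher in the KO at P31 (0 and 27.4). Medians of Rlbp1, Vim and Aqp4 were lower in the KO at both ages, for Vim by little at P31 (421 and 414). Those of Gfap and Sox9 were lower in the KO at P17. The 10 rod photoreceptor markers, all of which passed, gave a mean log2 score of 11.9 in the P17 controls, 9.68 in the P17 KO, 8.06 in the P31 controls and 9.97 in the P31 KO. Neutrophil markers, 1 of 4 passing, summed to 46.0 to 260 in the P17 controls and to at most 3.76 in the P17 KO, and to 0 to 346 and at most 0.830 at P31. Their median at P31 was 0 in both genotypes. B cell markers, 1 of 3 passing and nearly all Ighm, overlapped at P17 (15491 to 22656 and 7009 to 25219) and P31 (12869 to 20808 and 14307 to 17367). Endothelial markers, 3 of 5 passing, overlapped at P17 (926 to 2246 and 199 to 1442) and P31 (295 to 1455 and 55.1 to 1680). Monocyte and macrophage markers, 3 of 7 passing, overlapped at P17 (101 to 1128 and 131 to 1085) and lay apart at P31, at 41.1 to 419 in the controls and 559 to 1029 in the KO, where Lyve1, F13a1 and Ly6c2 were at 0 in every library. Dendritic cell markers lay apart at P17 (38382 to 53298 and 54638 to 68168), nearly all of it Siglech, which is also a microglia marker, and neither T cell nor NK cell marker in the table passed. Y-linked transcripts summed to 2189 to 6030 in the P17 controls, 0 to 1822 in the P17 KO, 0 to 7414 in the P31 controls and 0 to 0.903 in the P31 KO. The part of these cells and of sex in the results was not tested beyond the values given beside them.

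On mm10 the 9 members span 465.5 kb, from chr1:173566283 to chr1:174031810. In chromosome order they are Ifi213 (ENSMUSG00000073491, chr1:173566283-173599274, minus strand), Ifi209 (ENSMUSG00000043263, chr1:173630917-173647928, plus strand), Ifi207 (ENSMUSG00000073490, chr1:173723427-173741747, minus), Ifi204 (ENSMUSG00000073489, chr1:173747293-173766943, minus) and Mndal (ENSMUSG00000090272, chr1:173849126-173942491, minus). Then follow Ifi211 (ENSMUSG00000026536, chr1:173896345-173913046, minus), Ifi203 (ENSMUSG00000039997, chr1:173920407-173942672, minus), Ifi202b (ENSMUSG00000026535, chr1:173962568-173982744, minus) and Ifi205 (ENSMUSG00000054203, chr1:174011998-174031810, minus). All 9 are annotated as protein coding. The genes arose by duplication, so their transcripts share sequence, and the sources used here give neither the read length nor how reads that fit several genes were handled. Of the stretches of 50 bases in the annotated transcripts, 72.8% of those of Ifi211 and 33.7% of those of Ifi209 also occur in another gene, most often Ifi205 and Ifi214. The share was 20.0% for Ifi204, 19.6% for Mndal, 18.6% for Ifi205, 15.6% for Ifi213, 12.4% for Ifi203, 7.29% for Ifi207 and 0% for Ifi202b. Levels of Ifi211 are the most uncertain on this count, and reads of Ifi202b are the least likely to come from a relative. Exons of Mndal overlap those of other genes over 4.27% of their length and exons of Ifi203 over 0.552%, and the strand setting of the counting is not given.

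The upstream regions of 4 members are shown because Ifi202b had higher and the other 3 had lower means in the KO than in the controls. Ifi211 also had lower KO means and is not printed. Shown are the 250 bases before the start site from the RefSeq promoter table on GRCm38.p6, a C57BL/6J assembly, which held 8 of the 9 members and not Ifi204. They are printed 5′ to 3′ in the direction of the gene: Ifi202b at chr1:173982845-173983094 (minus strand), Ifi209 at chr1:173630609-173630858 (plus), Ifi213 at chr1:173599273-173599522 (minus) and Ifi207 at chr1:173741810-173742059 (minus). Capitals mark matches to GAAA, any 2 bases and GAAA again, a pattern like the interferon-stimulated response element (ISRE), or to AAATCGAAA, letters shared by several members and picked after the promoters had been seen.
Ifi202b: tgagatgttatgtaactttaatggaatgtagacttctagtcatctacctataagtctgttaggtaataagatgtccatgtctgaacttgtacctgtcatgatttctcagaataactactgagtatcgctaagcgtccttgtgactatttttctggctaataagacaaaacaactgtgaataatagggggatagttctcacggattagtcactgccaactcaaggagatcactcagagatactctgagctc
Ifi209: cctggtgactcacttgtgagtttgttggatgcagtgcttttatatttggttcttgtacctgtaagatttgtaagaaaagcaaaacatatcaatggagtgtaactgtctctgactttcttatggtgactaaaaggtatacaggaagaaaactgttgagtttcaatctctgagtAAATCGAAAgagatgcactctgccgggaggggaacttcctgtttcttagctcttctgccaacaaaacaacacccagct
Ifi213: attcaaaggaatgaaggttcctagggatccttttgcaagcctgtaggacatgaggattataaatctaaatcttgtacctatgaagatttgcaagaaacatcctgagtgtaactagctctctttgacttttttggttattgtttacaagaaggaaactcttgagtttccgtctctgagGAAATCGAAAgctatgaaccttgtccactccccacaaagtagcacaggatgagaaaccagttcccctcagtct
Ifi207: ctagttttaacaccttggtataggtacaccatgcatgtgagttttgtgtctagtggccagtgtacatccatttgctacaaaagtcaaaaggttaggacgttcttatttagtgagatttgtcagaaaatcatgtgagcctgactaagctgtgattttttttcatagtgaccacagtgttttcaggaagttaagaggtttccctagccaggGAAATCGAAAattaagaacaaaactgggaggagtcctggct

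The ISRE is the site through which type I interferon acts on many of its targets. Both strands of the window from 250 bases before to 50 bases after the start site were searched. The pair of GAAA was found in 6 of the 8 members with a promoter (75.0%), namely Ifi203, Ifi205, Ifi207, Ifi211, Ifi213 and Mndal, and in neither Ifi202b nor Ifi209. It was found in 3.99% of all 27025 genes with a promoter in the table, or 3.44% of all 32851 promoters. Of the 33 genes of the interferon response list that have a promoter, 57.6% held it. Some member promoters share much of their sequence (88.4% of 294 aligned bases for Ifi207 and Ifi211) and others less (64.3% of 230 for Ifi207 and Ifi213). Matches in different members are therefore not independent. In Ifi207, Ifi211, the first annotated start of Mndal and the second annotated start of Ifi203 the match began 35 to 41 bases before the start. It began 73 bases before it in Ifi213 and 134 bases before it in Ifi205, where another lay 23 bases after the start. AAATCGAAA was found in Ifi203, Ifi207, Ifi209, Ifi213 and Mndal, inside the longer match in all but Ifi209, where it began 78 bases before the start. Those letters were held by 38 of the 27025 genes (0.141%) and by 41 promoters (0.125%). Both patterns also occurred in Ifi206, Ifi208 and Ifi214, 3 of the 4 further p200 genes of the cluster. Of these, Ifi214, which did not pass the filter, was higher in every P31 KO library than in any P31 control. At P17 its libraries overlapped. Ifi211, with lower KO means, lacked AAATCGAAA. TTCNNNGAA, a pattern like the interferon gamma-activated site, was found in Ifi202b alone among the members, as TTCTCAGAA beginning 148 bases before the start. It was found in 9.55% of all genes with a promoter and in 8.30% of all promoters. These are matches of letters in the reference, and the data hold no measure of binding.

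The members differed in direction between genotypes. Ifi202b transcripts were found in every KO library and in no control library, while Ifi204 and Ifi209 were lower in every KO library than in any control library of the same age. At P17 1 member lay higher and 2 lower without overlap, beside 1.37% and 1.33% of all tested genes, and at P31 again 1 and 2, beside 3.04% and 2.53%. Ifi207, Ifi213 and Ifi211 had lower KO means at both ages with overlapping libraries. In a bulk sample, fewer cells of a type and less RNA per cell cannot be told apart.

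Ifi202b stood at 0 reads in all 7 P17 controls and all 5 P31 controls. The 5 P17 KO libraries held 86.0, 33.5, 87.4, 254 and 332 normalised counts, and the 5 P31 KO libraries 521, 565, 420.0, 306 and 372. Every KO library was thus above every control, and the P17 KO libraries spanned a wider range than those of P31. These values rest on 34 to 265 reads per library at P17 and 339 to 722 at P31. A count of 0 allows up to 3 reads, or at most 3.84 normalised counts in a P17 control and 2.84 in a P31 control, counting error only. Against those limits the KO means of 159 ± 128 (SD, n = 5) and 437 ± 106 (SD, n = 5) were at least 41.4-fold and 154-fold higher.

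Ifi204, the mouse gene most often set beside human IFI16, encodes a DNA sensor that signals through STING. Its normalised count in the P17 controls was 427 at the lowest, 792 at the median and 1798 at the highest, and in the P17 KO libraries 55.3, 382, 78.7, 40.1 and 319. The P31 controls held 2710.3, 2611, 1927, 1791 and 1068, and the P31 KO libraries 126, 245, 106, 9.94 and 0. The highest KO library lay below the lowest control at both ages, by a narrow margin at P17 and a wide one at P31. The difference on the log2(normalised count + 10) scale, KO minus control, was -2.68 ± 0.68 (SE) at P17 and -5.00 ± 0.73 at P31.

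Ifi209 is a less studied member of the family. Its normalised count was 259 to 575 in the P17 controls, with a median of 362, and 56.5, 20.7, 0, 53.1 and 0 in the P17 KO libraries. At P31 the controls held 2016, 774, 1229, 1034 and 1046, and the KO libraries 126, 138, 112, 17.2 and 205. The KO and control libraries were apart at both ages. The difference was -3.87 ± 0.54 (SE) at P17 and -3.44 ± 0.58 at P31 on the log2(normalised count + 10) scale.

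**Figure D1:**
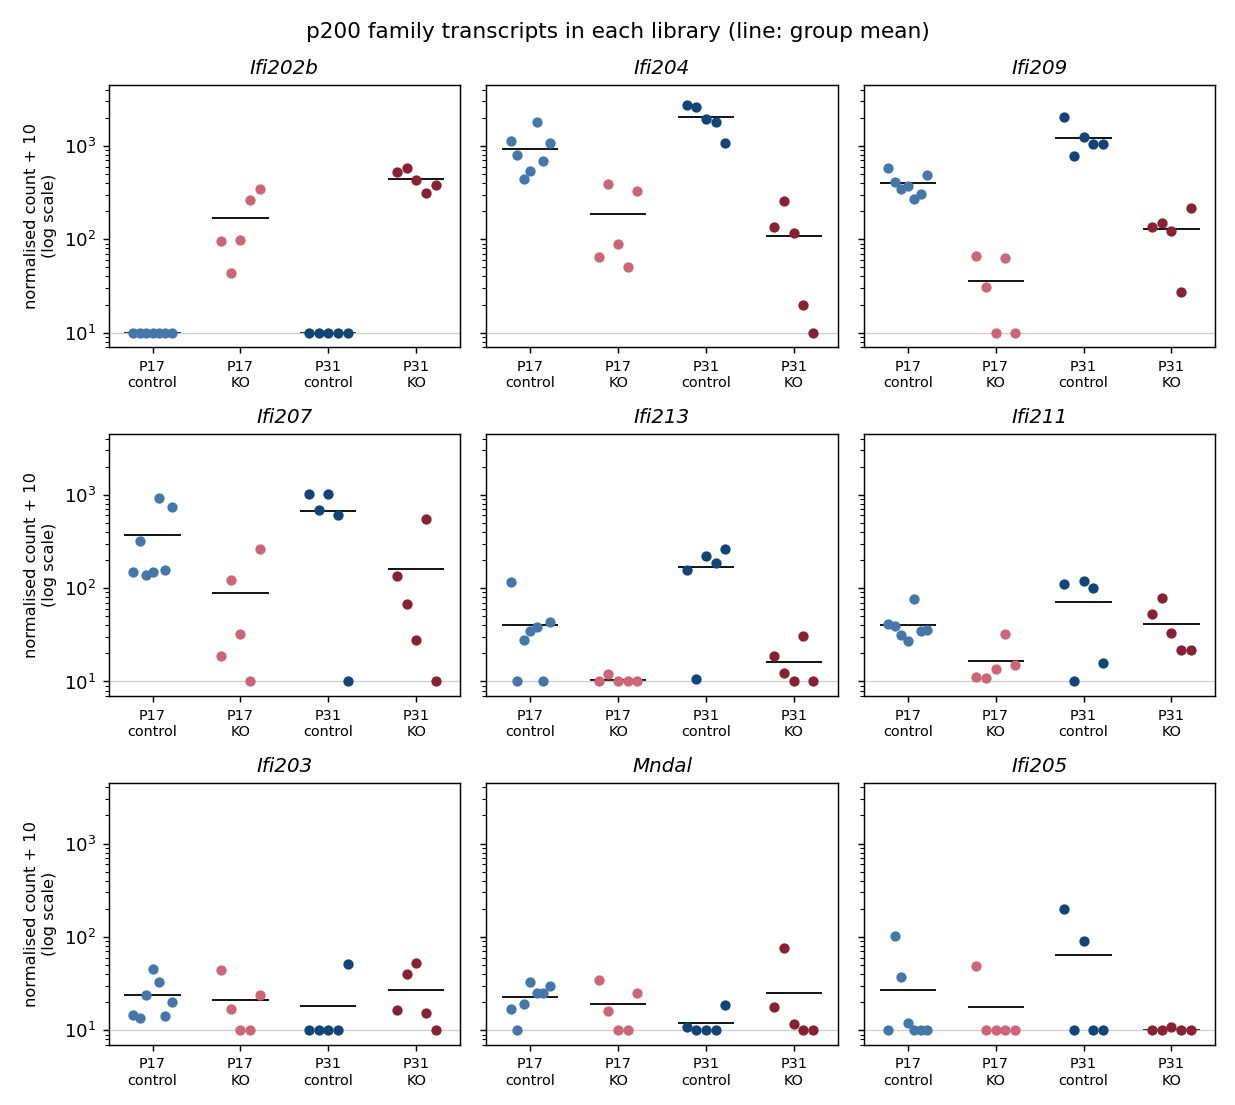
Normalised counts of the 9 p200 family members in each library, plotted as count + 10 on a log scale, with 1 panel per gene, 1 point per library and a line at the group mean; the grey line at 10 marks a count of 0. Ifi202b stands at 0 in all 12 controls and above 0 in all 10 KO libraries, while Ifi204 and Ifi209 are lower in each KO library than in each control of the same age.

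Ifi207 had the largest standard errors on the log2 scale among the 6 tested members. In the P17 controls it ranged from 129 to 919 normalised counts with a median of 146, and the P17 KO libraries held 8.60, 111, 22.5, 0 and 249.7. The P31 controls held 1012, 684, 1007, 599.7 and 0, and the P31 KO libraries 124, 57.9, 17.8, 544 and 0. One control and one KO library at P31 were thus at 0 and KO library 4 reached the range of the controls, so the groups overlapped. The difference was -2.58 ± 1.10 (SE) at P17 and -2.32 ± 1.19 at P31.

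Ifi213 was low at P17, with 0 to 107 normalised counts and a median of 24.9 in the controls, and 0, 1.97, 0, 0 and 0 in the KO libraries. At P31 the controls held 147, 0.578, 210.0, 176 and 255, and the KO libraries 8.67, 2.35, 0, 20.8 and 0. P31 control 2 alone kept the P31 groups from separating, and the P31 difference of -2.93 ± 0.76 (SE) was -3.78 without it. At P17 it was -1.50 ± 0.70.

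Ifi211, whose transcript shares most of its sequence with relatives, held 16.9 to 65.7 normalised counts in the P17 controls, with a median of 25.3, and 1.23, 0.985, 3.75, 22 and 5.02 in the P17 KO. At P31 the controls held 99.9, 0, 109, 89.6 and 5.69 and the KO libraries 43.4, 68.1, 22.9, 11.7 and 11.6. The P31 libraries overlapped over most of their range. The difference was -1.34 ± 0.60 (SE) at P17 and -0.33 ± 0.65 at P31, and the latter was 0.16 with a pseudocount of 1.

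The 3 members that did not pass the filter had few reads, and their groups overlapped at both ages. Ifi203 ranged from 3.65 to 35.8 normalised counts in the P17 controls and from 0 to 34.4 in the P17 KO, and was at 0 in 4 of 5 P31 controls. Mndal, named for its likeness to the myeloid cell nuclear differentiation antigen, ranged from 0 to 22.9 in the P17 controls and from 0 to 24.6 in the P17 KO. At P31 it stood at 0.916, 0, 0, 0 and 8.53 in the controls and 7.59, 65.7, 1.70, 0 and 0 in the KO. Ifi205 was at 0 in 4 of 7 P17 controls, 4 of 5 P17 KO, 3 of 5 P31 controls and 4 of 5 P31 KO libraries, and reached 192 in P31 control 1.

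P31 controls 2, 3 and 4 held Xist and no Y-linked reads, as the P31 KO libraries nearly did, and had 0 of Ifi202b, 1791 to 2611 of Ifi204 and 774 to 1229 of Ifi209. Without P17 KO library 1 the P17 differences were -2.43 ± 0.72 (SE) for Ifi204 and -4.20 ± 0.54 for Ifi209. When the rod score was added as a covariate, the differences at P17 and P31 were -3.20 ± 0.75 and -4.55 ± 0.78 for Ifi204, and -3.67 ± 0.62 and -3.61 ± 0.64 for Ifi209.

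Expressed per length, as reads per kb of exon and M reads (RPKM), Ifi204 was the most abundant member in both control groups. In the P31 controls it stood at 18.3 ± 6.09 RPKM (SD, n = 5), Ifi209 at 11.2 ± 4.52, Ifi207 at 6.18 ± 3.91, Ifi211 at 1.09 ± 0.955 and Ifi213 at 0.751 ± 0.470. Neighbours in that order differed by less than the sum of their SDs except Ifi207 and Ifi211, which differed by more. Ifi202b led the P31 KO order with 8.40 ± 1.84 RPKM (SD, n = 5), followed by Ifi207 at 1.45 ± 2.25, Ifi209 at 1.11 ± 0.653 and Ifi204 at 0.875 ± 0.901, which did not differ from each other beyond their spread. The mean of Ifi207 rested on P31 KO library 4 and was 0.464 without it, and by medians the order was Ifi209 (1.13), Ifi204 (0.937) and Ifi207 (0.546). In the P17 controls the order was Ifi204 at 7.69 ± 3.87 (SD, n = 7), Ifi209 at 3.28 ± 0.903 and Ifi207 at 3.13 ± 2.85, and in the P17 KO Ifi202b at 2.69 ± 2.03 (SD, n = 5), Ifi204 at 1.43 ± 1.32 and Ifi207 at 0.650 ± 0.848.

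The make-up of the family within a library does not depend on how libraries were scaled. Of all reads per exon kb of the 9 members, Ifi204 took 50.3% ± 6.10 (SD, n = 7) in the P17 controls and 48.7% ± 8.70 (SD, n = 5) in the P31 controls. It took 27.1% ± 22 in the P17 KO and 6.19% ± 5.66 in the P31 KO. Ifi202b took 0% in every control, 11.7% to 79.5% in the P17 KO and 50.5% to 77.3% in the P31 KO. It was the leading member in 4 of 5 P17 KO libraries and all 5 of P31, and Ifi204 led in the remaining one. Ifi209 took 24.8% ± 8.81 and 30.4% ± 9.91 in the P17 and P31 controls, and 5.27% ± 6.32 and 9.34% ± 6.91 in the KO groups. The 9 members together came to 15.0 ± 6.57 RPKM in the P17 controls (SD, n = 7), 5.30 ± 2.92 in the P17 KO, 38.0 ± 13.1 for controls at P31 and 12.6 ± 2.82 in the P31 KO (each SD of 5 libraries).

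**Figure D2:**
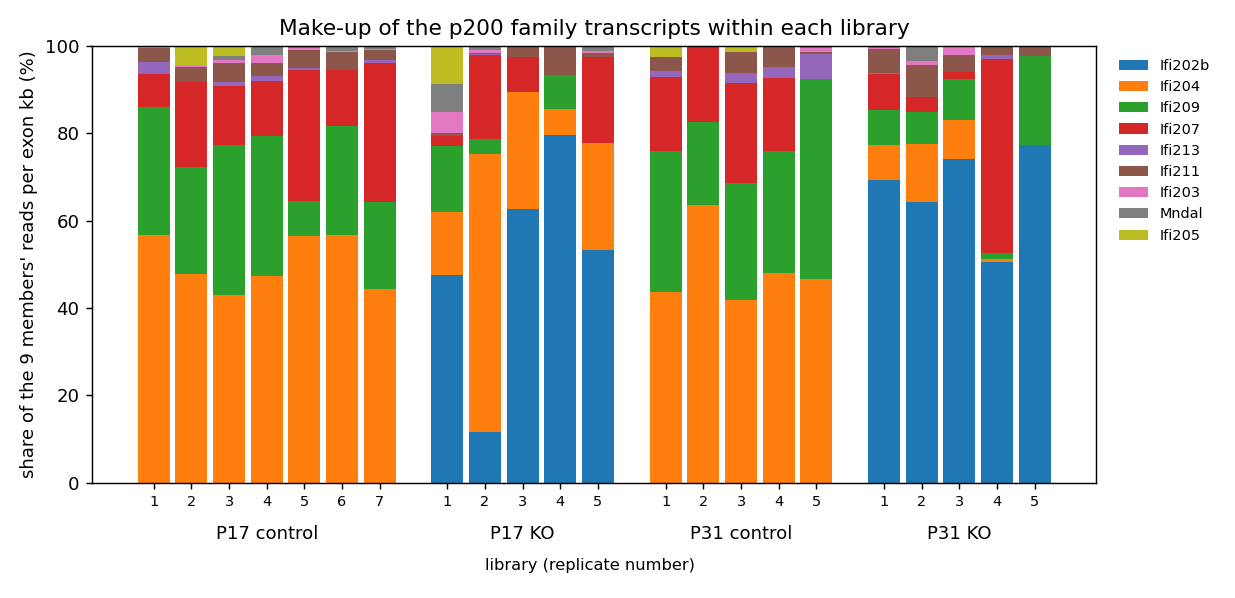
Share of each member, in percent of the 9 members' reads per kb of exon, in each of the 22 libraries by group and replicate number. Ifi204 takes 41.9% to 63.7% of the P31 control bars, and Ifi202b takes 0% of every control bar and 50.5% to 77.3% of the P31 KO bars.

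Age was not used to choose the members, so P31 was compared with P17 within each genotype. Ifi202b, at 0 in every control, could not change with age there, so 5 members could pass in controls. None of the 5 did (limma, Benjamini-Hochberg adjusted p under 0.05), beside 1.46% of all genes tested. The members' median difference, P31 minus P17, was 1.21 over the 5 (0.76 with Ifi202b) on the log2 scale against -0.10 over all tested genes, and 2 of the 5 had an unadjusted p under 0.05. Ifi209 showed the clearest shift, with every P31 control above every P17 control (1.69% of tested genes did so), a difference of 1.60 ± 0.54 (SE) and an adjusted p of 0.139. Ifi213 followed at 1.93 ± 0.70 (adjusted p = 0.176), which passed without P31 control 2 (2.79, adjusted p = 0.0253). It met the filter only through control libraries, mostly of P31, so its age test in controls is not independent of the filter. Ifi204 stood at 1.21 ± 0.68 (adjusted p = 0.460), Ifi207 at 0.32 ± 1.10 (0.945) and Ifi211 at 0.25 ± 0.60 (0.918). edgeR and DESeq2 on the recovered reads also passed 0, with 1 unadjusted p under 0.05 each. With only the 2 control groups in the fit, Ifi209 (adjusted p = 0.00349) and Ifi204 (adjusted p = 0.0361) passed. That fit passed far more of the 12868 genes, 318 higher and 699 lower, against 48 and 140 in the main fit. With the rod score as a covariate, 2 genes in all passed as higher and 1 as lower.

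In the KO none of the 6 passed either, beside 0.886% of all genes, with a median of 0.92 against 0.08 over all genes. Of the 6, Ifi213 could hardly pass, since it held at most 20.8 normalised counts in any KO library. Ifi202b was 2.75-fold higher on average at P31 than at P17, with 4 of 5 P31 KO libraries above every P17 KO library, and the difference was 1.75 ± 0.48 (SE, adjusted p = 0.0829). Without P17 KO library 5 it was 2.10 (adjusted p = 0.0317), while over all alternatives its adjusted p reached 0.470. In the main fit the spread is estimated over all 4 groups together. Controls at 0 lower it for Ifi202b, so its SE and p are too small for the KO alone. Ifi209 stood at 2.02 ± 0.58 (adjusted p = 0.0941), and passed without P17 KO library 1 (2.36, adjusted p = 0.0232) or P31 KO library 4 (2.52, adjusted p = 0.0255). Ifi204 stood at -1.11 ± 0.73 (adjusted p = 0.511), where the controls had a higher mean at P31. Its KO mean was lower at P31 than at P17 (97.3 and 175), but its KO median was higher (106 and 78.7) and the libraries overlapped. Ifi211 was at 1.26 ± 0.65 (0.387), Ifi207 at 0.58 ± 1.19 (0.863) and Ifi213 at 0.51 ± 0.76 (0.799). Limma gave 2 of 6 an unadjusted p under 0.05, while edgeR passed 0 with none under 0.05 unadjusted and DESeq2 passed 0 with 3.

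The difference between the genotype effects at P31 and P17 was tested in the same fit, and 0 of 6 members passed, beside 0.0466% of all genes. The largest were Ifi204 at -2.32 ± 1.0 (SE, adjusted p = 0.569) and Ifi202b at 1.75 ± 0.66 (adjusted p = 0.490). With its controls at 0, the value of Ifi202b is its age difference in the KO again, with an SE lowered in the same way. Ifi213 was at -1.42 ± 1.03 (adjusted p = 0.768), Ifi211 at 1.0 ± 0.89 (0.815), Ifi209 at 0.42 ± 0.79 (0.915) and Ifi207 at 0.26 ± 1.63 (0.982). The signs for Ifi209 and Ifi207 turned under a pseudocount of 64, and those for Ifi209 and Ifi213 under edgeR and DESeq2. An unadjusted p under 0.05 was reached by 2 members in limma, 0 in edgeR and 1 in DESeq2, where 0 passed after adjustment. So a larger genotype difference of Ifi202b or Ifi204 at P31 than at P17 was not established at this spread.

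**Figure D3:**
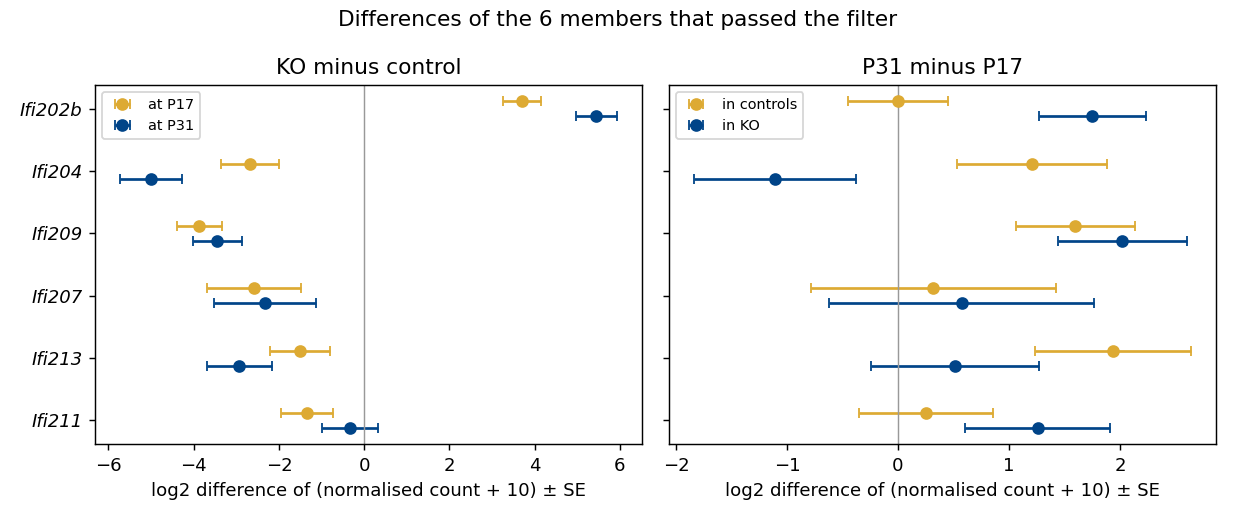
Differences of the 6 members that passed the filter on the log2(normalised count + 10) scale, with bars for ± 1 SE from limma, for KO minus control at P17 and P31 (left) and P31 minus P17 in controls and KO (right). Ifi202b lies above 0 and Ifi204, Ifi209, Ifi207, Ifi213 and Ifi211 below 0 on the left at both ages, and Ifi204 lies on opposite sides of 0 in controls (1.21) and KO (-1.11) on the right.

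Within groups the members varied with each other to different degrees. After subtracting group means over 22 libraries, which share their scaling, Ifi204 and Ifi207 had a Pearson r of 0.48 (Spearman 0.52) and Ifi207 and Ifi209 of -0.45 (Spearman -0.43), as a description across all 4 groups. Ifi202b was at 0 in all controls, so its values rest on the 10 KO libraries. Over those alone it had r of 0.61 with Ifi211 (Spearman 0.76), 0.082 with Ifi204 (Spearman 0.24) and -0.0016 with Ifi209 (Spearman 0.15). The highest r among the 12868 tested genes can be large without any link, so the genes below are only a description. Given are the genes outside the cluster and its flanks with the highest Pearson r to each member over the 22 libraries. They were Zfp984 (0.80) and Slc2a5 (0.77) for Ifi202b, Chsy1 (0.86) and A430033K04Rik (0.80) for Ifi204, and Cox18 (0.79) and Ptar1 (0.77) for Ifi209. For Ifi207 they were 1110025M09Rik (0.78) and Gtdc1 (0.74), for Ifi211 Gla (0.76) and Klrg2 (0.75), and for Ifi213 Gm38120 (0.83) and Metap1d (0.79).

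The cluster holds 4 further p200 genes, of which Aim2, Ifi206 and Ifi208 were tested. None passed at P17, beside 1.52% of all genes, and 1 of 3 fell at P31, beside 2.88%. Aim2 held 1281, 2475, 1759, 1144 and 2065 normalised counts in the P31 controls and 363, 763, 199, 1072 and 915 in the P31 KO, which lay lower without overlap. Its difference was -1.56 ± 0.38 (SE, limma adjusted p = 0.0193) at P31 and -0.44 ± 0.35 (adjusted p = 0.523) at P17. The P31 call was lost without P31 control 2 (adjusted p = 0.0655), P31 control 5 (0.0540), P31 KO 1 (0.0556) or P31 KO 3 (0.0598), with only the P31 groups in the fit (0.0933) and in edgeR (0.0773). Ifi206 stood at -1.88 (adjusted p = 0.315) and -2.19 (adjusted p = 0.278), and Ifi208 at -0.83 (adjusted p = 0.569) and -1.81 (adjusted p = 0.320). Ifi214, not tested, held 44.4, 10.2, 73.8, 167 and 14.9 in the P31 KO and 0, 0.578, 2.24, 0 and 0 in the P31 controls, and is the gene with which Ifi209 shares 33.4% of its stretches of 50 bases.

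Genes that switch the family on, and other genes that interferon induces, were set beside the members. Of 18 tested genes of interferon signalling (receptors, kinases, transcription factors and inhibitors), 0 passed in limma at either age, with medians of -0.42 at P17 and -0.43 at P31 against -0.30 and -0.05 over all genes. Among 38 interferon-induced genes, at each age 3 fell, none rose and the other 35 did not pass, beside 1.52% and 2.88% of all genes. Their medians were -0.79 and -1.03, and 34 and 33 of them were below 0, beside 66.9% and 53.6% of all genes. At P17 the genes that fell were Ifit3b (-2.50, adjusted p = 0.00331), Lgals3bp (-1.35, adjusted p = 0.0241) and the dsRNA sensor Oas1a (-1.98, adjusted p = 0.0413). At P31 they were the antiviral Rsad2 (-4.84, adjusted p = 0.00330), Sp100 of the nuclear bodies (-1.75, adjusted p = 0.00431) and Slfn2 (-1.47, adjusted p = 0.0441). Ifit3b was lost in edgeR (adjusted p = 0.0712). Lgals3bp was lost without P17 control 2 (adjusted p = 0.0612) or 4 (0.0513), with the rod score (0.128) and with only the P17 groups (0.116). Oas1a was lost in 11 of 22 fits that left out 1 library (up to 0.109), with TMM scaling (adjusted p = 0.110), with no filter (0.0630), with the rod score (0.0555), with only the P17 groups (0.108), in edgeR (0.119) and in DESeq2 (0.0803). Slfn2 was lost in 19 of 22, all but those without P17 KO 1 or 4 or P31 control 5 (up to 0.111), and with TMM scaling, a pseudocount of 1, the rod score, only the P31 groups, edgeR and DESeq2 (adjusted p from 0.0541 to 0.194). Rsad2 was lost in edgeR (0.359) and DESeq2 (0.277). With age in controls, 36 of the 38 were above 0 with a median of 0.82, beside 42.6% of all genes above 0, and 1 passed, beside 1.46%. With age in the KO, 30 of the 38 were above 0 with a median of 0.61, beside 54.4% of all genes above 0, and 2 passed, beside 0.886%.

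Of 22 tested genes of DNA sensing, the pathway in which Ifi204 and Aim2 act, 0 passed at P17 and 2 at P31, beside 1.52% and 2.88% of all genes. Their medians were -0.12 and -0.20 against -0.30 and -0.05 over all genes. Rnaseh2b, a subunit of the enzyme that removes ribonucleotides from DNA, rose (1.65 ± 0.35, SE, limma adjusted p = 0.00745), a call that was lost in edgeR (adjusted p = 0.0631). Nlrp3, the sensor of another inflammasome, fell (-1.65 ± 0.41, adjusted p = 0.0252), a call that was lost when any of P31 controls 1, 4 and 5 and P31 KO 3 and 5 was left out (adjusted p up to 0.0776), and with no filter (0.0519), the rod score (0.0962) or only the P31 groups (0.0528). Cgas (-0.42 and -0.37) and Sting1 (-0.33 and -0.21) did not pass at P17 or P31.

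The flanks of the cluster were searched for other genes that differed between genotypes. Of 77 genes of the table within 2 Mb of the cluster, 37 were tested, and 4 (10.8%) passed at P17 and 5 (13.5%) at P31, beside 1.52% and 2.88% of all genes. All lay before the cluster in coordinate order, at 0.760 to 1.55 Mb from its end, but so did 33 of the 37 tested genes. None of the 4 tested genes beyond its other end passed at either age, too few to compare the sides. Slamf8, of the SLAM family of immune cell receptors, rose at both ages, by 1.92 ± 0.23 (SE, limma adjusted p = 8.58e-06) at P17 and 1.14 ± 0.25 (adjusted p = 0.00780) at P31. Slamf1, of the same family, stood at -2.87 ± 0.74 (adjusted p = 0.0493) and -4.17 ± 0.80 (adjusted p = 0.00270), and Cd84, also of it, at -0.87 ± 0.20 (adjusted p = 0.0227) and -0.92 ± 0.22 (adjusted p = 0.0166). Kcnj10, a potassium channel of glia, rose by 2.45 ± 0.57 (adjusted p = 0.0250) and 3.14 ± 0.62 (adjusted p = 0.00382), and Igsf8 by 1.47 ± 0.31 (adjusted p = 0.00737) at P31. Of the glia markers above, Slc1a3 was higher in the KO as Kcnj10 was and the sum of the other 6 overlapped between genotypes. The part of glia in the Kcnj10 values was not tested. At P17 Slamf1 was lost in 17 of 22 fits that left out 1 library, all but those without P17 KO 2 or 5 or P31 KO 1, 4 or 5 (adjusted p up to 0.182). Kcnj10 was lost at P17 when any of P17 controls 2 and 7 and P17 KO libraries 2 to 5 was left out (up to 0.0947), and Cd84 without P17 control 1 (0.050) or P17 KO 3 (0.0561). With the rod score or only the P17 groups in the fit, Slamf1 (adjusted p = 0.0827 and 0.106), Kcnj10 (0.106 and 0.0615) and Cd84 (0.209 and 0.155) were lost at P17. Slamf1 was also lost at P17 with a pseudocount of 1 (0.0813) or 64 (0.0564), with no filter (0.0850), with a minimum of 100 (0.0597), in edgeR (0.505) and in DESeq2 (0.418), and at P31 in edgeR (0.201).

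**Figure D4:**
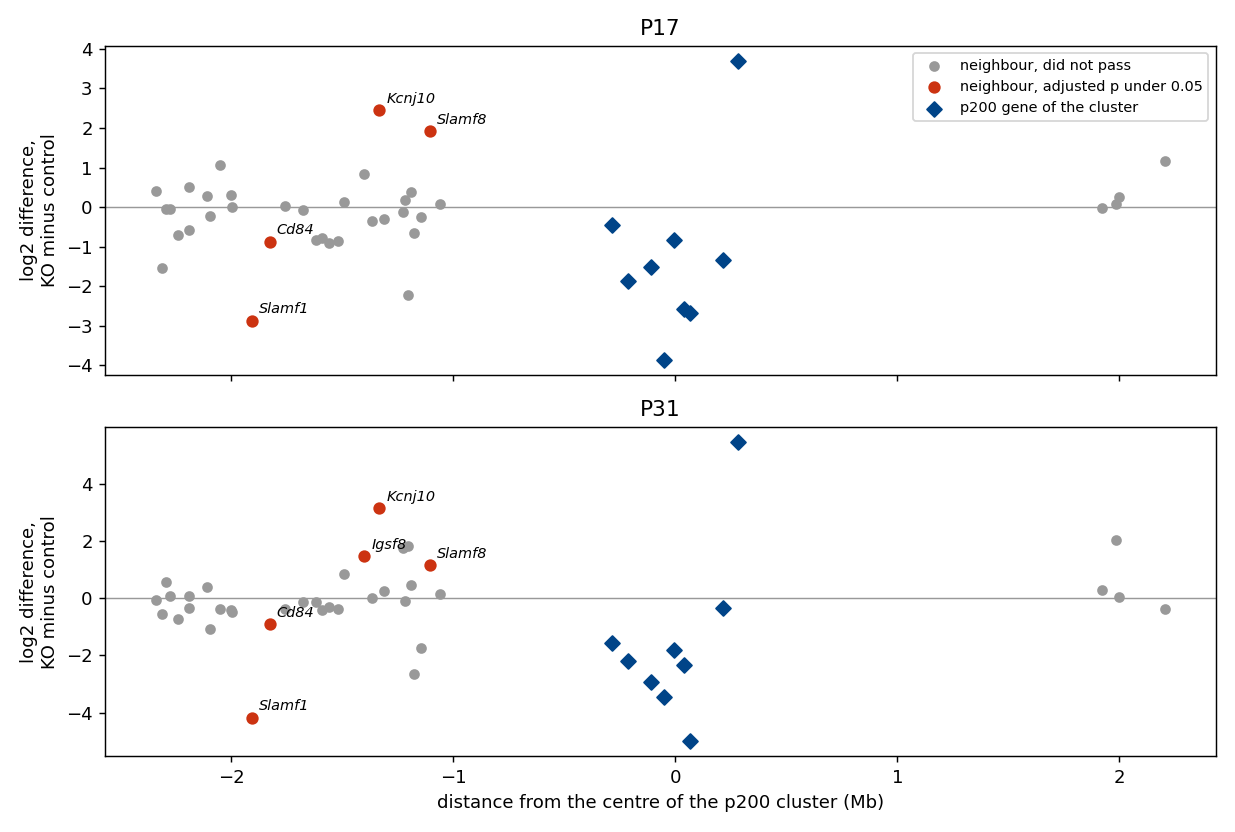
KO minus control differences on the log2(normalised count + 10) scale at P17 (upper) and P31 (lower) for tested genes within 2 Mb of the p200 cluster, by distance of the gene from the centre of the cluster in Mb. Diamonds are p200 genes, red points are neighbours with an adjusted p under 0.05 and grey points did not pass. The 4 and 5 red points all lie on the left, as do 33 of the 37 tested neighbours.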

How the data were processed

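RNA of sorted mouse retinal microglia was sequenced in 22 libraries (7 P17 control, 5 P17 KO, 5 P31 control, 5 P31 KO). Tools in the submitters' processing notes, listed without roles, are STAR 2.7.5b and featureCounts, FastQC 0.72, DESeq2 1.22.2 and R 3.5.3, with the build mm10. The deposited table holds a normalised signal, that is, the reads of each gene after the authors divided every library by its own size factor. This is read from the values: dividing by the step of 1 read gave whole numbers, to a relative tolerance of 1e-06, for all 349420 values above 0 (100%). The sources used here do not give the annotation, strand setting or read length.

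The 9 members and all gene lists were chosen with earlier results of these data known. Named genes are the members, the other p200 genes, up to 4 called genes per list and genotype contrast with the smallest p, every called gene within 2 Mb up to 10, and the 2 genes most like each member. The test was limma 3.58.1 in R 4.3.3 (trend, robust) on log2(normalised count + 10), which understates changes of low genes. Genes needed at least 30 in 5 libraries. All 22 libraries entered with 4 group means, and p-values were adjusted by Benjamini-Hochberg over 12868 genes, with a threshold of 0.05. The 2 genotype contrasts and the 2 age contrasts share groups with each other. The pipeline was tested on simulated reads. Alternatives were TMM scaling, pseudocounts of 1 and 64, no filter, a minimum of 100, no robust moderation, a rod score, only the groups compared, a replicate block, edgeR 4.0.16, DESeq2 1.42.0 and each library left out. RPKM used recovered reads and GENCODE vM21 exon lengths on mm10 (99.8% of genes matched). Promoters are from RefSeq on GRCm38.p6, with Ifi204 not matched.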

Additional observations from a re-analysis of the deposited data

Results flagged for a closer look

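In 11 of the 34 member and group sets with any reads, 1 library stood far from the rest by Dixon's test. The usual rate of about 1 in 20 holds for normally distributed values and not for counts with many zeros. A set with reads in only 1 library is always flagged, so the 11 cannot be set against that rate. Most of the 11 are single libraries with reads of a gene that is at or near 0 in the others of its group. Ifi207 reached 544 normalised counts in P31 KO library 4 against 124 in the next, and Ifi213 reached 107 in P17 control 1 against 33.3. Ifi211 reached 65.7 in P17 control 5 against 31.1, and 22 in P17 KO library 4 against 5.02. Mndal reached 65.7 in P31 KO library 2 against 7.59, and 8.53 in P31 control 5 against 0.916. The same P31 control 5 held 40.7 of Ifi203, which was at 0 in the other P31 controls. Ifi205 reached 91.3 in P17 control 2 against 26.8, and stood at 39.3 in P17 KO library 1 and 0.848 in P31 KO library 3 with 0 in the rest of each group. Ifi213 stood at 1.97 in P17 KO library 2, with 0 in the others.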

How the results depend on the processing

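The KO minus control differences of the 6 tested members kept their sign under every alternative except Ifi211 at P31, which was 0.16 with a pseudocount of 1 and ranged from -0.88 to 0.011 over fits without 1 library. Low members and Ifi202b moved most with the pseudocount, as the log scale implies. TMM scaling moved the median of all genes at P17 from -0.30 to -0.11. Members passing with age were 0 in controls (0 to 1 without 1 library), 1 with a pseudocount of 64 and 2 with only the groups compared. In the KO they were 0 (0 to 1), and 1 with a pseudocount of 64, and for the difference of genotype effects 0 (0 to 0). Signs turned for Ifi207 with age in controls (-0.30 with a pseudocount of 1, -0.023 with the rod score, -0.080 to 1.59 without 1 library), with age in the KO (-0.18 to 1.26) and in the difference (-0.27 with a pseudocount of 64, -1.01 to 0.94 without 1 library). They also turned for Ifi211 with age in controls (-0.33 with a pseudocount of 1, -0.094 to 0.80), for Aim2 with age in the KO (-0.46 to 0.13), and in the difference for Ifi209 (-0.49 with a pseudocount of 64, -0.036 in edgeR, -0.13 in DESeq2), Ifi213 (1.11 in edgeR, 1.17 in DESeq2) and Ifi206 (0.15 with a pseudocount of 1, 2.26 in edgeR, 2.33 in DESeq2, -1.03 to 0.11 without 1 library). Counts of other p200 genes passing at P31 were 1, but 2 without a filter and 0 with only the groups compared and in edgeR (0 to 1 without 1 library), and 0 throughout at P17. Interferon signalling passed 0, but 1 at each age with only the groups compared and 4 at P31 in DESeq2 (0 to 2 and 0 to 5 without 1 library). DNA sensing passed 0 at P17, but 1 in edgeR, and 2 at P31, but 1 without a filter, with the rod score, with only the groups compared and in edgeR (0 to 0 and 1 to 4). Interferon response genes passed 3 at each age, but 1 at P17 with the rod score, and 6 and 5 at P31 with a pseudocount of 64 and only the groups compared (1 to 7 and 2 to 9). Neighbours passed 4 and 5, but 1 at P17 with the rod score or only the groups compared, and 9 at P31 in DESeq2 (1 to 5 and 5 to 9). The number of all genes passing moved too. In the main fit 218 were higher and 153 lower at P31, against 378 and 271 in DESeq2 and 478 and 386 without P17 KO library 1. For P17 the main fit passed 99 and 96, edgeR 308 and 41, and the fit with the rod score 74 and 40. With age in controls 48 and 140 passed in the main fit, 67 and 126 with a pseudocount of 64, and 318 and 699 with only the groups compared. The cause of these changes was not tested. Same-numbered libraries correlated at -0.14 to 0.12 after removal of group means, which is too weak a check to show whether replicate numbers pair the libraries. With a replicate block the counts at P17 and P31 were 1 and 3 for neighbours, 1 at P17 for interferon response genes, 1 at P31 for DNA sensing and 0 at P31 for other p200 genes. Among genes named, the block lost Ifit3b (adjusted p = 0.0559), Lgals3bp (0.0999), Oas1a (0.133), Kcnj10 (0.141), Cd84 (0.181) and Slamf1 (0.0800) at P17, and Slfn2 (0.166), Nlrp3 (0.0673), Aim2 (0.0673), Slamf8 (0.0611) and Cd84 (0.0926) at P31. Depth limits Ifi203, Ifi205, Ifi211, Ifi213 and Mndal, which had under 100 reads in 18 to 22 of 22 libraries.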
